A study of Mus musculus with 947 samples.

Results

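The mature miRNAs mmu-miR-103-3p and mmu-miR-107-3p were followed by name through every tissue, age and parabiosis group of the series, 2 of 1076 miRNAs listed in the aging cohort and 2 of 795 in the parabiosis cohort. In all, 7883 small noncoding RNAs are listed for the aging cohort and 5248 for the parabiosis cohort. The aging cohort consisted of untreated C57BL/6JN males and virgin females, sampled at 10 ages that spanned 1 to 27 months, and yielded 769 libraries over 16 tissues, 553 from males and 216 from females, with no females at 24 and 27 months. Each tissue was represented by 1 to 6 libraries per age. For parabiosis, 30 male mice were surgically joined in 15 pairs so that the mates shared a circulation, which yielded 176 libraries over 6 tissues. Isochronic young (IY) mice were 4 C57BL/6JN animals of 3 months and 4 of 4.5 months joined to each other. Isochronic aged (IA) mice were 8 animals of 19 months joined to each other, and the 7 heterochronic pairs joined an aged mouse of 19 months (HA) to a young mouse of 4 months (HY). All HY mice were of another strain than the other young mice. The aged mice were C57BL/6JN, with some C57BL/6J animals that the sources used here do not assign to HA or IA. Strain and age therefore cannot be told apart between HA and HY. The tissues were taken whole after perfusion, so fewer cells of a type and less RNA per cell cannot be told apart.

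miR-103 and miR-107 are vertebrate paralogs that lie in introns of the pantothenate kinase genes, whose enzymes start the synthesis of coenzyme A. Like other miRNAs they guide Argonaute proteins to messenger RNAs that pair with the seed near their 5′ end, and repression of caveolin-1, a protein that stabilises the insulin receptor at the membrane of fat cells, is the best known route by which they dampen insulin signalling. In obese rodents their rise in liver and the improved insulin sensitivity after their silencing in fat and liver made them known as regulators of glucose handling, and Dicer, the enzyme that cuts miRNA precursors, is another target.

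The mature sequences are shown because they set what sequencing can separate. They are given 5′ to 3′ from RefSeq (GRCm38.p6), with the seed, bases 2 to 8, in capitals.
mmu-miR-103-3p: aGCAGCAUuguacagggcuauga
mmu-miR-107-3p: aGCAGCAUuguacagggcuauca
Each is 23 bases long, and they differ by 1 substitution, G22C, counted from 1 at the 5′ end of miR-103-3p, which is the 2nd base from the 3′ end. No other mature miRNA of the RefSeq table has the same bases 2 to 8. The authors allowed 1 mismatch per read in mapping, so a read of either member could match the other, and how far this mixed their values was not tested.

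The wider miR-15 and miR-107 group shares AGCAGC near the 5′ end. In the members it starts at base 1, and in the 7 other mouse miRNAs compared it starts at base 2, as in the pair below, where bases 2 to 8 are again in capitals.
mmu-miR-15a-5p: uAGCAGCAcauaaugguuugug
mmu-miR-16-5p: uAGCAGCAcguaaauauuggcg
The shift by 1 base gives the group another seed, GCAGCAU in the members against AGCAGCA in miR-15a-5p and miR-16-5p.

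miR-103-3p has 2 hairpin genes and miR-107-3p has 1, each on the strand of its host gene and inside an intron of it, since 0 exons of the hosts overlap them. On GRCm38.p6, Mir103-1 lies at chr11:35782396-35782481 on the plus strand in Pank3. Mir103-2 lies at chr2:131288052-131288137 on the plus strand in Pank2. Mir107 lies at chr19:34820687-34820773 on the minus strand in Pank1. The hairpins are shown to set the common 3p arm, in capitals, against the 5p arms that differ between the genes.
Mir103-1: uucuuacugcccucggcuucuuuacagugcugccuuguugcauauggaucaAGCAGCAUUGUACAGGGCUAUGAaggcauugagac
Mir103-2: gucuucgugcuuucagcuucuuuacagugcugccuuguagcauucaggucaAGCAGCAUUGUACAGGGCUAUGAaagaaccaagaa
Mir107: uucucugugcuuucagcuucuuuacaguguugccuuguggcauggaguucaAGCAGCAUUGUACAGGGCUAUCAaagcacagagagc
The mature 3p arm covers bases 52 to 74 of each hairpin, so the 3p reads of Mir103-1 and Mir103-2 cannot be told apart. The number of hairpins shows in the deposited values. Counted back into reads, miR-107-3p was a whole number in 100% of the libraries of both cohorts. miR-103-3p was whole in 48.8% of the aging libraries and an odd multiple of 0.5 in the other 51.2%, and the parabiosis shares were 46.6% and 53.4%. Values in steps of 0.5 would arise if each read was shared between both hairpins. The paper states that the precursor with the highest count stands for each mature RNA, so the listed value may cover 1 hairpin alone. Levels of miR-103-3p, and their ratio to miR-107-3p, would then be understated, which was not tested. The ratio of miR-103-3p to miR-107-3p is thus known up to a constant factor, which leaves its differences between tissues and groups as they are.

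Both members exceeded 1 read per 1000000 mapped reads (rpmm) in all 769 aging libraries and all 176 parabiosis libraries. Median depth was 20.1 M mapped reads (M for 1000000) in each cohort. Behind the values stood a median of 13477 reads of miR-103-3p in the aging cohort, with 27 in the thinnest library, and a median of 2589 reads of miR-107-3p, with 7 in the thinnest. The summed miRNA values varied far more than depth, from 3181 to 1067760 rpmm per aging library. Because of this variation levels are given per mapped read and, where it matters, per 1000000 miRNA reads, which means per summed miRNA value. The highest sum exceeds 1000000, so the sum is not strictly a share of the mapped reads. The reason was not tested. In 10 aging libraries and 5 parabiosis libraries the miRNA profile was closest to another tissue than the labelled one. The 5 were mesenteric fat libraries closest to gonadal fat, and the aging ones included 1 skin library closest to liver and 1 subcutaneous fat library closest to bone.

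miR-103-3p was most abundant in gonadal and subcutaneous fat and, per mapped read, least abundant in muscle and pancreas. Gonadal fat (GAT) held 2153 ± 664 rpmm (SD, n = 37). Subcutaneous fat (SCAT) held 1766 ± 728 rpmm (n = 44). Brain (1066 ± 631, n = 51), lung (1034 ± 366, n = 55), small intestine (1015 ± 365, n = 51) and mesenteric fat (MAT, 1012 ± 378, n = 47) followed near 1000 rpmm. These tissues overlapped widely, and their standard deviations exceeded the distances between them. Kidney held 896 ± 401 rpmm (n = 51), marrow 767 ± 225 (n = 56), brown fat (BAT) 764 ± 510 (n = 31) and skin 640 ± 276 (n = 47). Bone (497 ± 391, n = 48), spleen (491 ± 239, n = 55) and liver (463 ± 158, n = 51) lay below. Heart (342 ± 114, n = 53), limb muscle (237 ± 89.2, n = 47) and pancreas (211 ± 78.2, n = 45) closed the order.

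miR-107-3p was ordered differently, with kidney, BAT, brain and liver above every white fat depot per mapped read. BAT held 447 ± 299 rpmm, with libraries from 26.8 to 1186. Kidney held 416 ± 195, brain 255 ± 134 and liver 246 ± 105. GAT and SCAT, first for miR-103-3p, held 195 ± 58.4 and 163 ± 58.8 rpmm of miR-107-3p, next to lung at 161 ± 51.8. Skin (133 ± 48.1), marrow (131 ± 34.9), small intestine (128 ± 25.5) and MAT (112 ± 30.3) formed the middle. Spleen (97.3 ± 46.3), heart (91.8 ± 22.01), bone (59.7 ± 35.7), limb muscle (41.96 ± 16.1) and pancreas (26.4 ± 8.26) lay lowest.

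**Figure D1:**
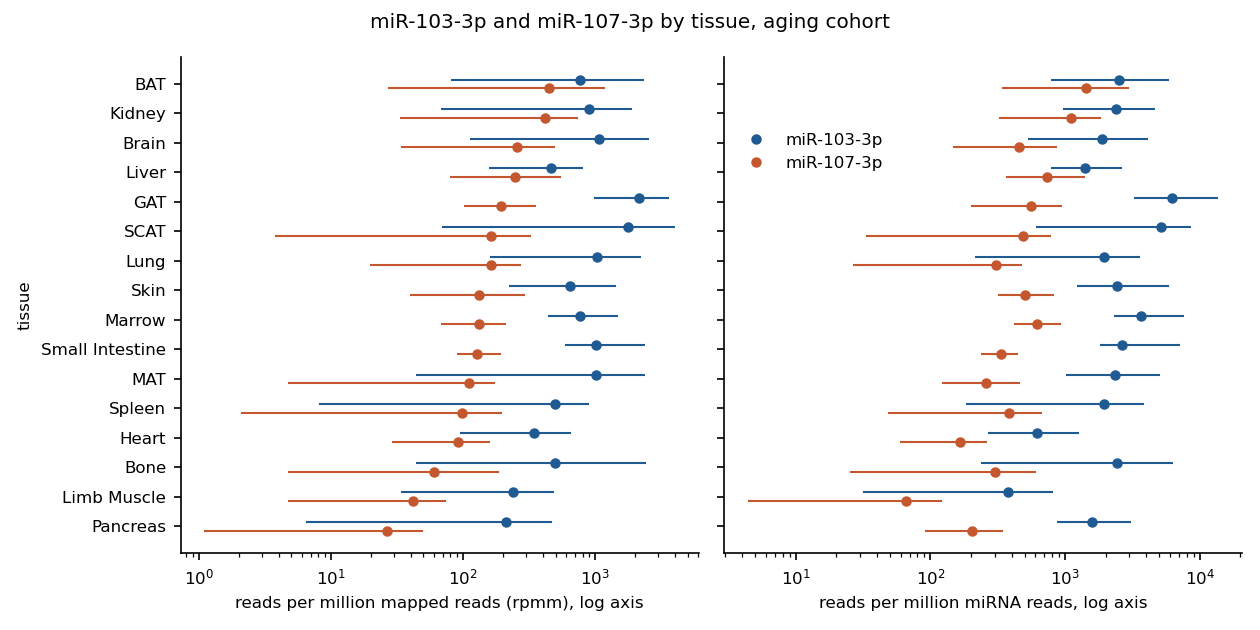
Level of miR-103-3p and miR-107-3p in the 16 tissues of the aging cohort, in reads per 1000000 mapped reads (left) and per 1000000 miRNA reads (right), both on log axes, with the mean as a point and the lowest to highest library as a line. GAT had the highest mean of miR-103-3p, 2153 rpmm, and BAT the highest mean of miR-107-3p, 447 rpmm.

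Ordered by mean log2 level, neighbouring tissues differed in their means in 8 of 30 neighbour pairs (permutation test with 100000 resamples, two-sided, Benjamini-Hochberg over the 30 pairs). For miR-103-3p these were GAT over SCAT (0.39 on the log2 scale, adjusted p = 0.0395), SCAT over small intestine (0.69, adjusted p = 0.00015), marrow over skin (0.33, adjusted p = 0.0103) and heart over limb muscle (0.59, adjusted p = 0.00015). For miR-107-3p they were GAT over lung (0.33, adjusted p = 0.0395), spleen over bone (0.67, adjusted p = 0.00337), bone over limb muscle (0.45, adjusted p = 0.0395) and limb muscle over pancreas (0.58, adjusted p = 0.0021). The test compares means, and libraries of GAT and SCAT still overlapped, with log2 SDs of miR-103-3p of 0.46 in GAT and 0.89 in SCAT. The means of the leading tissues of miR-107-3p were not told apart. Kidney over BAT had an adjusted p of 0.935, BAT over liver 0.15 and liver over brain 0.595. GAT and SCAT ranked first for miR-103-3p under all 6 settings tried.

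Scaled to miRNA reads, GAT (6205 ± 2093) and SCAT (5149 ± 1449) again led for miR-103-3p, and marrow came next with 3666 ± 1084. Pancreas (1585 ± 471) stood above liver (1398 ± 402), heart (620 ± 202) and limb muscle (377 ± 137) for miR-103-3p. For miR-107-3p the order began with BAT (1423 ± 630), kidney (1109 ± 371) and liver (732 ± 242). Heart (167 ± 39.4) and limb muscle (65.8 ± 22.7) were lowest on this scale. Pancreas, last per mapped read, stood at 202 ± 54.5 per 1000000 miRNA reads and thus above both muscles. Brain held less miR-107-3p than GAT and SCAT by mean log2 level on this scale (8.71 against 9.07 and 8.83), the reverse of its place per mapped read.

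The ratio of the members within a library cancels the scaling of the library, apart from the pseudocount of 1 rpmm added to each level, which shrinks it in thin libraries. With a pseudocount of 0.1 rpmm the distance of pancreas from the other tissues moved, on the log2 scale, from 0.57 to 0.62. On the log2 scale the ratio of miR-103-3p to miR-107-3p averaged 0.86 ± 0.31 (SD, n = 31) in BAT, 0.95 ± 0.38 in liver and 1.13 ± 0.44 in kidney. Heart (1.86 ± 0.41) and brain (1.98 ± 0.26) followed. White fat lay at the other end, with 3.45 ± 0.28 in GAT, 3.41 ± 0.28 in SCAT and 3.13 ± 0.28 in MAT. Brown and white fat thus stood at opposite ends of the order, and the highest BAT library (1.57) lay below the lowest MAT library (2.59). Skin (2.23 ± 0.39), spleen (2.29 ± 0.24), limb muscle (2.51 ± 0.40), marrow (2.54 ± 0.23), lung (2.67 ± 0.24), pancreas (2.90 ± 0.27), small intestine (2.94 ± 0.39) and bone (2.96 ± 0.26) lay between.

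Set against the libraries of all other tissues, 12 of 16 tissues differed (permutation test with 100000 resamples, two-sided, adjusted over 16 tissues). The difference on the log2 scale was -1.57 for BAT, -1.52 for liver, -1.33 for kidney, 1.14 for GAT and 1.11 for SCAT, each with the adjusted p of 1.78e-05 that belongs to the smallest p these resamples can give. Skin, spleen, limb muscle and marrow were the tissues that did not pass. Several tissues of 1 mouse may enter this test, because the library numbers do not name mice.

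**Figure D2:**
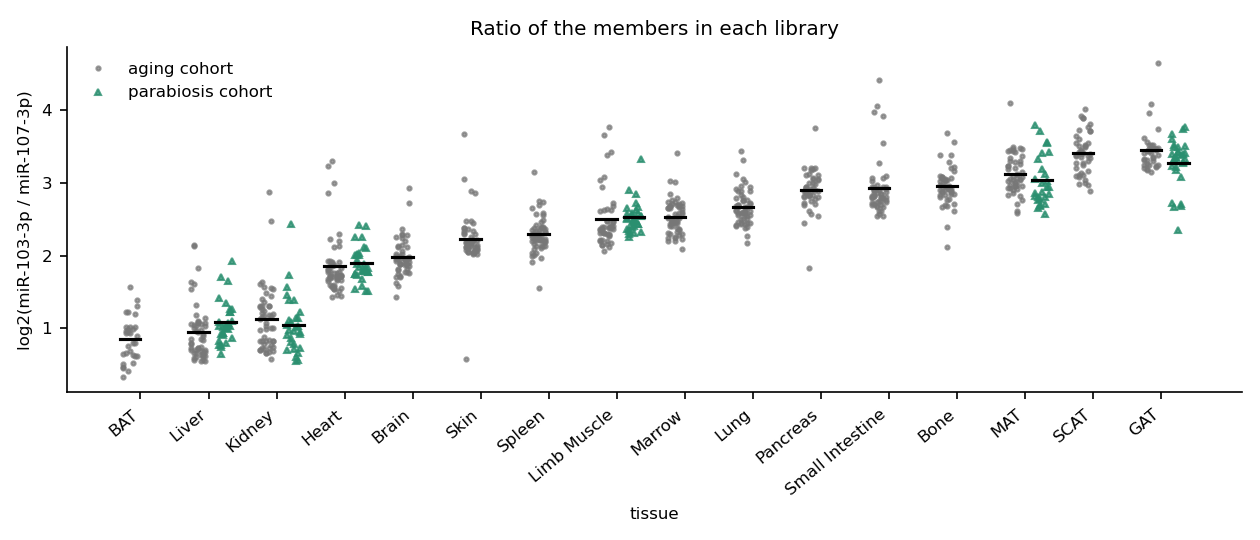
log2 ratio of miR-103-3p to miR-107-3p by tissue, 1 point per library, with aging libraries in grey, parabiosis libraries in green and bars at the means. BAT, liver and kidney lie lowest, near 1, and MAT, SCAT and GAT highest, above 3, in the aging cohort. In the parabiosis cohort, which sampled 6 of these tissues, kidney and liver were lowest and GAT and MAT highest.

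The parabiosis cohort gave a separate reading of the ratio in 6 tissues. It averaged 1.05 ± 0.40 (n = 29) in kidney, 1.09 ± 0.30 (n = 30) in liver and 1.90 ± 0.24 (n = 30) in heart. In limb muscle it was 2.54 ± 0.21 (n = 30), in MAT 3.04 ± 0.34 (n = 27) and in GAT 3.28 ± 0.34 (n = 30). Each mean lay within 1 SD of the aging-cohort mean of its tissue. The cohorts were tabulated separately, so levels in rpmm are not set against each other by a test.

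The other arm of the Mir107 hairpin, miR-107-5p, was a scarce RNA, at 1 rpmm or more in 200 of 769 aging libraries. Its tissue means were highest in kidney (4.41 ± 2.76 rpmm), BAT (3.80 ± 2.37), brain (2.69 ± 1.21) and liver (1.58 ± 0.82). These are the tissues in which miR-107-3p was also highest. Over the 16 tissue means its Spearman's rho was 0.65 with miR-107-3p and 0.04 with miR-103-3p, given as a description over tissues that share libraries and depth. The 5p arm of Mir103-2 did not exceed 1.09 rpmm in any aging library, so it gave no comparison.

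By likeness of pattern over 16 tissue means, Pearson's r of log2 levels per 1000000 miRNA reads among 367 miRNAs, miR-103-3p was closest to miR-339-3p (r = 0.76), miR-674-5p (0.76), miR-497a-5p (0.74), miR-98-5p (0.74) and miR-532-5p (0.73). miR-107-3p ranked 28th in that list at 0.68. miR-107-3p itself was closest to miR-744-3p (0.77), let-7g-3p (0.74), miR-455-3p (0.71) and miR-455-5p (0.70), followed by miR-103-3p. Within tissues the members moved together, with Spearman's rho over aging libraries from 0.57 in heart to 0.94 in bone. In the parabiosis cohort this rho ran from 0.40 in kidney to 0.94 in MAT. These are descriptions over libraries that share their depth and scaling.

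Correlation with age was called where Spearman's rho passed 0.5 in either direction, and 1 of 32 tests of the members passed, miR-107-3p in BAT. Over all miRNAs and tissues 3.78% lay above 0.5 and 4.32% below -0.5. In BAT rho was 0.53 for miR-107-3p (permutation p = 0.00224, adjusted p = 0.0264, Pearson's r of the log2 level 0.42, permutation p = 0.0189, 0.46 once the 2 libraries most distant in age from the median were dropped). For miR-103-3p it was 0.44 (permutation p = 0.0147, adjusted p = 0.0442, Pearson's r 0.43, permutation p = 0.0163, 0.45 once the same libraries were dropped). BAT miRNAs as a whole went the same way, with 15.2% above 0.5 and 41.3% positive at an adjusted p under 0.05, and the median rho over all BAT miRNAs was 0.39. Against that background the call of 1 member is not a result about the members.

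The BAT libraries were few at young ages. The 4 libraries of 1 to 6 months held 63.7, 76.9, 172 and 348 rpmm of miR-107-3p. The 11 libraries of 9 to 15 months ranged from 52.5 to 640 with a median of 429, and the 16 of 18 to 27 months from 26.8 to 1186 with a median of 636. All 4 libraries of 27 months (626, 692, 719 and 846 rpmm) lay above the young ones, while single libraries of 18 and 24 months lay below the lowest of the young ones. The 27-month libraries were all from males. Of the young ones only 6-month library 13 was from a male, so age and sex are not separated in this comparison.

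miR-103-3p showed the same shape. Its medians were 246, 901 and 979 rpmm in these age bands, with ranges of 144 to 479, 102.7 to 1283 and 81.3 to 2327. The ranges of the later bands overlapped over most of their width.

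**Figure D3:**
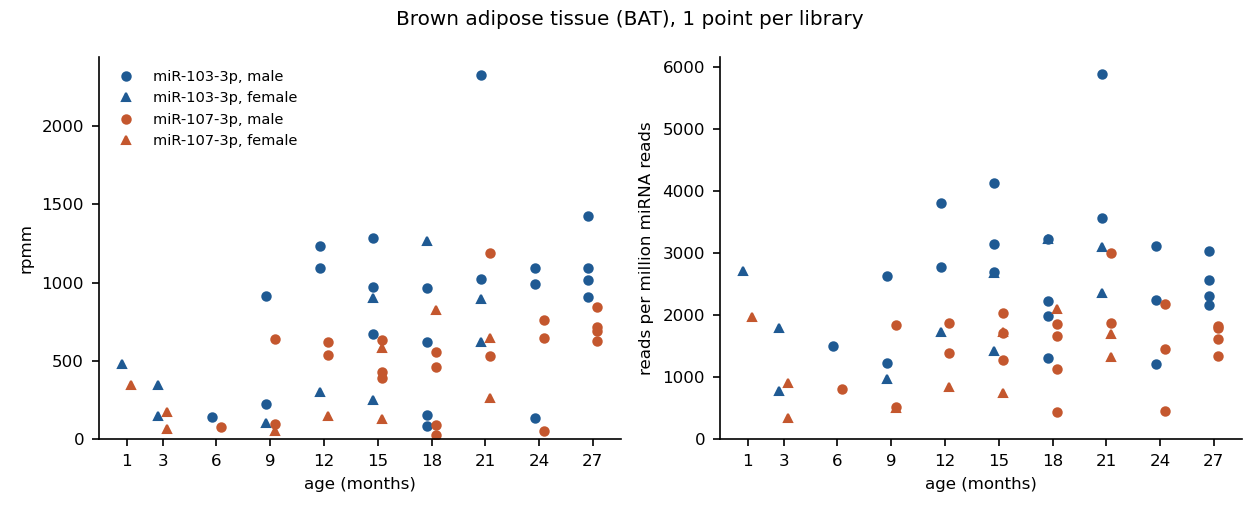
miR-103-3p and miR-107-3p in 31 BAT libraries by age in months, in rpmm (left) and per 1000000 miRNA reads (right), with males as circles and females as triangles. The 4 libraries of 27 months, all male, hold 626 to 846 rpmm of miR-107-3p, above the 63.7 to 348 of the 4 libraries of 1 to 6 months, mostly female. The rho of 0.53 per mapped read was 0.26 per 1000000 miRNA reads.

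The miRNA content of the BAT libraries moved with age too. Summed miRNA reads had a rho of 0.54 with age, with medians of 183219, 287440 and 366544 rpmm in the 3 age bands. Scaled to miRNA reads the rho of miR-107-3p was 0.26 and that of miR-103-3p 0.24. The summed brown fat markers (miR-193b-3p, miR-365-3p, miR-378a-3p and miR-455-3p, all measured, 195335 to 653944 per 1000000 miRNA reads) had a rho of -0.45 with age, and the ratio of the members had one of 0.55 with them. The part of these markers in the result was not tested. With single libraries left out, rho of miR-107-3p ran from 0.49 to 0.63. It fell under 0.5 without any one of the 27-month libraries 05 (0.498), 19 (0.498) and 30 (0.492). Without the 24-month library 23 it was 0.63, and that of miR-103-3p rose past the threshold to 0.52. In males alone rho was 0.49 for miR-107-3p and 0.27 for miR-103-3p, so the call was lost.

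The ratio of the members in BAT had a rho of -0.25 with age (permutation p = 0.171, adjusted p = 0.353). Across all 16 tissues 0 passed the adjusted threshold for the ratio by permutation, and 3 had an unadjusted p under 0.05. The nearest was SCAT, where log2 ratios had a rho of 0.44 with age (permutation p = 0.00315, adjusted p = 0.0504, Pearson's r = 0.42, permutation p = 0.00435, 0.37 once the 2 libraries most distant in age from the median were dropped). The 3 SCAT libraries of 27 months lay between 3.55 and 3.73, and the 4 of 3 months between 2.97 and 3.89. The groups overlapped through 1 library of 3 months, the one whose profile was closest to bone, and without libraries closest to another tissue rho was 0.51 (adjusted p = 0.00896). It fell to 0.39 without the 1-month libraries (permutation test, adjusted p = 0.188). Without the libraries of 24 and 27 months it fell to 0.30 (permutation test, adjusted p = 0.208).

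The related lists gave the setting in BAT. Of the 7 miRNAs of the miR-15 and miR-107 group besides the members, which share AGCAGC, 1 passed a rho of 0.5 (miR-16-5p, 0.53), and their median was 0.49. Of 25 miRNAs linked to insulin, glucose or lipid handling, 4 passed and 0 fell below -0.5, with a median of 0.41. The highest was miR-29a-3p (0.53), which targets insulin signalling and collagen messages, and the lowest was miR-802-5p (-0.18). Over all BAT miRNAs 15.2% lay above 0.5, so these counts are not a result about the lists, and the median was 0.39. After scaling to miRNA reads the medians were 0.32 for the group and 0.28 for the insulin-linked list, and 0.13 over all BAT miRNAs.

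In liver miR-107-3p had a rho of 0.39 with age (permutation p = 0.00573, adjusted p = 0.029 over 501 miRNAs, Pearson's r = 0.40, permutation p = 0.00358, 0.38 once the 2 libraries most distant in age from the median were dropped), under the threshold of 0.5. The same adjusted threshold was passed with a positive rho by 20% of liver miRNAs. miR-103-3p had 0.29 (permutation p = 0.0425, adjusted p = 0.136). In males alone rho of miR-107-3p was 0.59. It was 0.27 without the libraries of 24 and 27 months and 0.30 scaled to miRNA reads.

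Against 3 months, 1 of 228 comparisons of a member at a later age passed, miR-107-3p in liver at 27 months, beside 2.8% of all miRNA comparisons. The 6 libraries of 3 months ranged from 86.3 to 261 rpmm with a median of 136. The 4 libraries of 27 months held 204, 252, 371 and 465 rpmm. The ages overlapped, since 2 of the 4 old libraries lay inside the range of the young ones. The difference was 1.08 ± 0.37 on the log2 scale (SE, limma adjusted p = 0.0251). In this contrast 28.5% of all liver miRNAs were called higher. Scaled to miRNA reads it was 0.41 (limma adjusted p = 0.543), and the 27-month libraries were all male while the 3-month ones were of both sexes. In males alone the difference was 1.43 (limma adjusted p = 0.00206). The call was lost without any one of the 27-month libraries 13 (0.99, limma adjusted p = 0.0846) and 18 (0.88, limma adjusted p = 0.128) or the 3-month libraries 14 (0.98, limma adjusted p = 0.0613) and 35 (0.93, limma adjusted p = 0.0719).

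miR-103-3p in liver differed by 0.73 ± 0.33 in the same contrast (limma adjusted p = 0.0929). Of the 7 other miRNAs of the miR-15 and miR-107 group, 5 rose and 0 fell, with a median of 1.07, and of the 25 insulin-linked ones 9 rose and 0 fell, with a median of 0.86. Over all 501 liver miRNAs 28.5% were called higher and the median was 0.55. The lists were not compared after scaling to miRNA reads.

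At 21 against 3 months, the comparison the study calls AGE, 0 of 28 member comparisons passed by limma, beside 4.05% of all miRNAs. Without adjustment 3 had p under 0.05, and edgeR on recovered reads called 1, miR-103-3p in small intestine. There limma gave -0.40 ± 0.25 (limma adjusted p = 0.265). BAT could not be fitted, because it had 2 libraries at 3 months.

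Females and males were compared at 1 to 21 months with age in the model, and 3 of 32 member comparisons passed, all higher in females, beside 4.42% of all miRNAs. In liver miR-107-3p ranged from 185 to 551 rpmm in 14 females, with a median of 291. In 30 males it ranged from 80.1 to 338, with a median of 203. The sexes overlapped between 185 and 338 rpmm. The difference was 0.75 ± 0.16 on the log2 scale (SE, limma adjusted p = 0.000836), where 3.59% of liver miRNAs were called higher in females. For miR-103-3p it was 0.46 ± 0.16 (limma adjusted p = 0.0659), and 8 of the 44 fits that left out 1 liver library each called it, with adjusted p down to 0.024.

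The liver call was lost once batches entered the model. With the set of 12 library numbers as a covariate the difference was 0.57 (limma adjusted p = 0.0523), and with the sequencing plate it was 0.79 (limma adjusted p = 0.0642). Scaled to miRNA reads it was 0.54 (limma adjusted p = 0.00207). The hepatocyte marker miR-122-5p had medians of 318070 per 1000000 miRNA reads in females and 317981 in males.

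In skin both members were higher in females. miR-103-3p ranged from 353 to 1433 rpmm in 13 females with a median of 723, and from 223 to 813 in 28 males with a median of 522. The difference was 0.75 ± 0.18 (limma adjusted p = 0.00107), where 12.9% of skin miRNAs were called higher in females. miR-107-3p ranged from 84.2 to 197 rpmm in females (median 149) and from 39.3 to 236 in males (median 112), a difference of 0.51 ± 0.17 (limma adjusted p = 0.0199). Males and females overlapped for both. Without the 15-month library 03 the difference in miR-107-3p was 0.45 (limma adjusted p = 0.0514). With batches in the model the call for miR-107-3p was lost, at 0.41 with the set (limma adjusted p = 0.15) and 0.42 with the plate (limma adjusted p = 0.187), while that for miR-103-3p held, at 0.60 (limma adjusted p = 0.0274) and 0.70 (limma adjusted p = 0.0227). Scaled to miRNA reads the differences were 0.52 (limma adjusted p = 0.000767) and 0.28 (limma adjusted p = 0.0554).

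The male that held 236 rpmm of miR-107-3p was the skin library closest to liver. Its ratio of 0.57 on the log2 scale was below every other skin library, and miR-122-5p reached 284459 per 1000000 miRNA reads there. Without it both differences were unchanged, at 0.75 and 0.51 (limma adjusted p = 0.000777 and 0.0145). With age in the model this library thus had no weight in the differences, and leaving it out could change only the spread. The summed skin markers miR-203-3p and miR-205-5p, both measured, ranged from 86954 to 166430 per 1000000 miRNA reads in females and from 1090 to 122256 in males, and their part in the result was not tested.

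**Figure D4:**
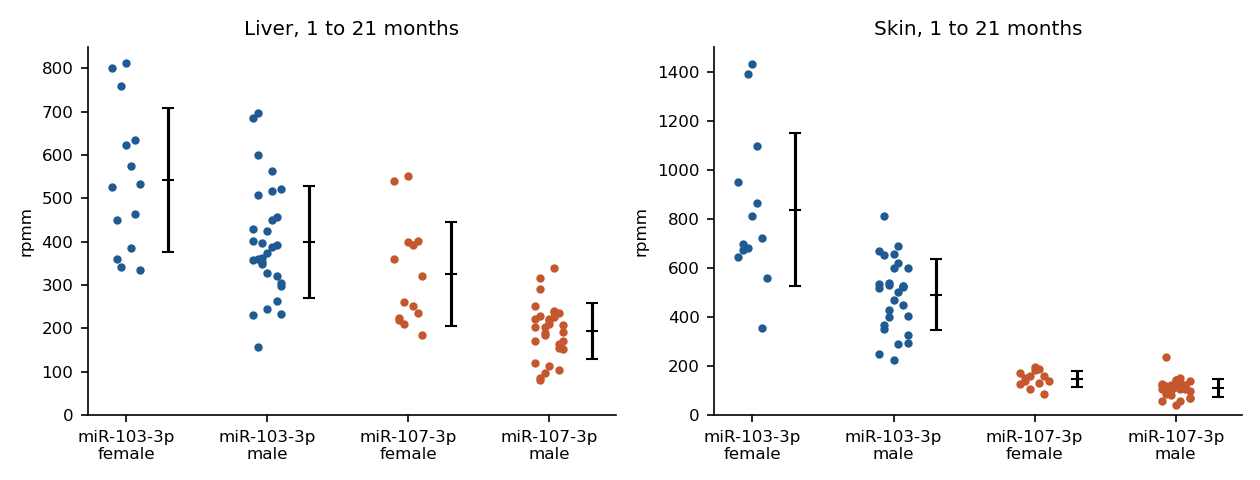
miR-103-3p and miR-107-3p in rpmm in liver (left) and skin (right) of females and males at 1 to 21 months, 1 point per library with mean and SD. The female medians of miR-107-3p are 291 rpmm in liver and 149 in skin, against 203 and 112 in males, with overlap in each pair.

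In the parabiosis cohort 2 of 48 member comparisons passed, beside 4.73% of all miRNA comparisons. Against that share the number of calls is not a result about the members. Both calls were for miR-107-3p in kidney, lower in aged than in young mice. The 7 HY kidneys held 510 to 741 rpmm of miR-107-3p with a median of 595. The 6 HA kidneys held 191 to 448 with a median of 402. The groups did not overlap. The difference between HA and HY was -0.73 ± 0.16 on the log2 scale (SE, limma adjusted p = 0.00139), where 8.94% of kidney miRNAs were called lower and 13.8% higher.

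The isochronic mice showed a difference of the same sign. The 8 IY kidneys held 467 to 643 rpmm with a median of 572, and the 8 IA kidneys held 264 to 465 with a median of 410. Per mapped read these groups did not overlap either, but only narrowly, with 465 as the highest IA and 467 as the lowest IY value. Scaled to miRNA reads they overlapped, at 653 to 1254 in IA and 1051 to 1587 in IY. HA (643 to 1120) and HY (1197 to 1683) stayed apart on that scale. The difference between IA and IY was -0.52 ± 0.15 (limma adjusted p = 0.0377), where 1.3% of kidney miRNAs were called lower. With the pair number of the joined mice as a random block the adjusted p was 0.0597, and without IA mouse 19B the difference was -0.44 (limma adjusted p = 0.0843). Of the 29 fits that left out 1 kidney library each, 11 lost this call and 0 lost the call for HA against HY. Those libraries were IY mice 15A, 15B, 16A, 16B, 17A and 17B and IA mice 6B, 7B, 9A, 9B and 19B, and adjusted p without 1 of them ran from 0.0513 to 0.0843.

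miR-103-3p passed in neither contrast in these kidneys. It held 944 to 1144 rpmm in HY (median 1069), 896 to 1170 in HA (median 1015), 875 to 1303 in IY (median 976) and 702 to 1253 in IA (median 809). All 4 groups overlapped. The difference was -0.06 ± 0.12 between HA and HY (limma adjusted p = 0.751) and -0.21 ± 0.11 between IA and IY (limma adjusted p = 0.288).

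**Figure D5:**
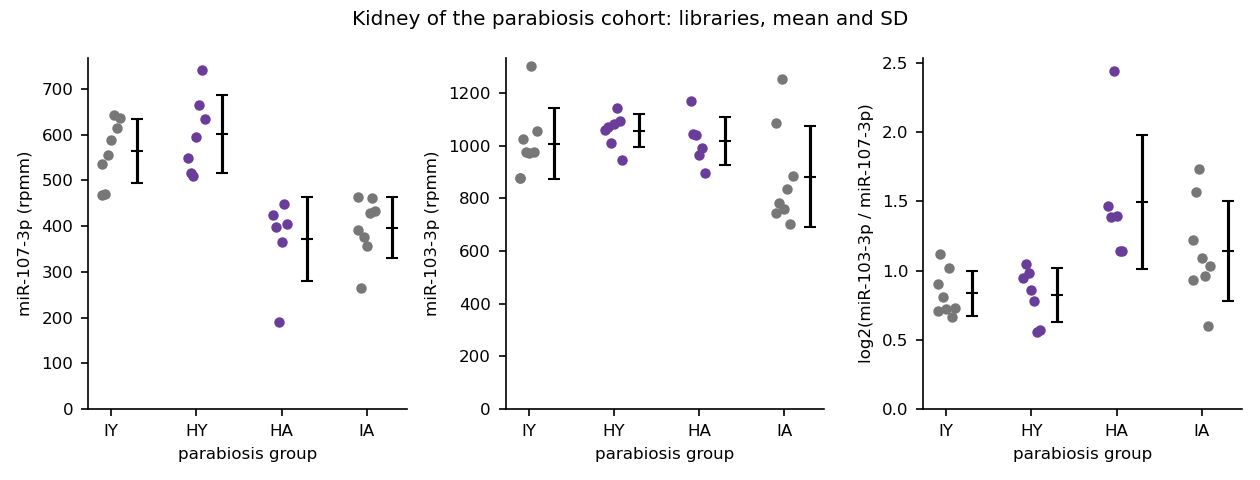
miR-107-3p (left) and miR-103-3p (middle) in rpmm and their log2 ratio (right) in kidneys of mice joined to a mate of their own age (IY, IA) or of the other age (HY, HA), 1 point per library with mean and SD. For miR-107-3p in rpmm every HA kidney (191 to 448) lies below every HY kidney (510 to 741). Every IA kidney (264 to 465) lies below every IY kidney (467 to 643), but IA and IY overlap once scaled to miRNA reads. In rpmm miR-103-3p overlaps in all groups.

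The log2 ratio of miR-103-3p to miR-107-3p in kidney averaged 1.496 ± 0.483 in HA, 0.82 ± 0.19 in HY, 1.14 ± 0.36 in IA and 0.83 ± 0.16 in IY. HA exceeded HY by 0.67 (exact permutation p = 0.00117, adjusted p = 0.028 over 24 comparisons, a test added after the members were seen to part in kidney), and the lowest HA kidney (1.14) lay above the highest HY kidney (1.05). That p is the smallest the test can give for groups of these sizes, and the test treats joined mates as independent. IA exceeded IY by 0.31 (exact permutation p = 0.0441, adjusted p = 0.53). No other of the 24 comparisons of the ratio, in 6 tissues, passed.

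HA mouse 14A stood apart, with 191 rpmm of miR-107-3p and a ratio of 2.44 from 2647 reads. Without it HA and HY differed by -0.55 in miR-107-3p (limma adjusted p = 0.00344) and by 0.48 in the ratio (exact permutation p = 0.00253, again the smallest possible, unadjusted, n = 5 and 7). The other arm, miR-107-5p, was 2.80 to 4.39 rpmm in HA and 4.60 to 9.98 in HY, again without overlap, a difference of -0.82 ± 0.19 (limma adjusted p = 0.00238). Between IA and IY miR-107-5p differed by -0.16 ± 0.17 (limma adjusted p = 0.714), with 2.71 to 9.92 rpmm in IA and 4.65 to 9.06 in IY.

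Cell markers moved with these groups. Summed white blood cell markers (miR-142a-3p, miR-150-5p and miR-223-3p, all measured) ran from 2917 to 6261 per 1000000 miRNA reads in HA and from 2507 to 5187 in IA. In HY they ran from 1273 to 2265 and in IY from 1159 to 3045. The summed gut and kidney markers miR-192-5p, miR-194-5p and miR-215-5p, all measured, had medians of 27393 in HA, 41182 in HY, 31308 in IA and 36379 in IY. Their part in the result was not tested. Scaled to miRNA reads the difference in miR-107-3p was -0.65 between HA and HY (limma adjusted p = 0.00113) and -0.43 between IA and IY (limma adjusted p = 0.0402).

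The kidneys of the aged groups overlapped, as did those of the young groups, whose ages and strains differed. HA differed from IA by -0.12 ± 0.16 in miR-107-3p (limma adjusted p = 0.691) and HY from IY by 0.09 ± 0.15 (limma adjusted p = 0.999). The IY mice of 3 months held 556 to 643 rpmm and those of 4.5 months 467 to 637. Of the 7 other miRNAs of the miR-15 and miR-107 group, 0 passed in any of the 4 kidney contrasts by limma. Of the 25 insulin-linked miRNAs 4 rose and 0 fell between HA and HY, with a median of -0.11, where 13.8% of all 537 kidney miRNAs were called higher and their median was -0.03.

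The aging cohort did not show lower miR-107-3p in old kidneys. Its rho with age was 0.27 in kidney (permutation p = 0.0548, adjusted p = 0.399). The 4 kidneys of 27 months held 494, 566, 576 and 685 rpmm. The 5 of 3 months held 37.5, 37.7, 238, 308 and 590, and the lowest pair came from libraries with 116723 and 57385 rpmm of miRNA in all. The difference was 1.99 ± 0.71 on the log2 scale (limma adjusted p = 0.0613). It passed without any one of the 3-month libraries 23 (2.49, limma adjusted p = 0.0161) and 32 (2.26, limma adjusted p = 0.0366) or the 15-month library 07, which enters through the shared spread (1.99, limma adjusted p = 0.0414). At 21 against 3 months, nearer the ages of the parabiosis mice, miR-107-3p in kidney was no call with all libraries (limma adjusted p = 0.116). The parabiosis mice and the 27-month mice were all male, while 3-month library 32 was from a female. At 1 to 21 months female kidneys averaged 348 rpmm of miR-107-3p and male ones 436. A test of the difference between the cohorts was not made.

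In the other 5 parabiosis tissues no member comparison passed by limma, and 4 of these 40 had an unadjusted p under 0.05. The contrasts that hold REJ (HA against IA) and ACC (HY against IY) gave 0 calls for the members in all 6 tissues. The nearest was miR-103-3p in heart, which held 339 to 496 rpmm in HA with a median of 421 and 222 to 516 in IA with a median of 311, a difference of 0.44 ± 0.16 (limma adjusted p = 0.096). Without IA mouse 19A it was 0.54 (limma adjusted p = 0.0299). miR-107-3p in heart differed by 0.17 ± 0.11 in the same contrast (limma adjusted p = 0.325).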

How the data were processed

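Small RNA libraries were sequenced single-end. For every RNA of a library the authors deposited 1 signal value, in reads per 1000000 mapped reads (rpmm), made with miRMaster (Bowtie, miRBase, 1 mismatch allowed) after libraries under 2 M aligned reads (M for 1000000) had been left out. Of the aging table's columns 2 were not used, because their names differ from the labels. To recover reads, the lowest nonzero value of RNAs other than miRNAs was set to 1 read. With a tolerance of 0.05 reads, 100% of those RNAs' values up to 1000 reads and 99.0% (aging) and 98.8% (parabiosis) of miRNA values were whole.

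The members and lists were chosen with earlier results of these data known. miRNAs with at least 1 rpmm in 10% of a tissue's libraries were tested on log2(rpmm + 1), a scale that understates differences at low levels. Groups were compared with limma 3.58.1 (eBayes with trend), adjusted by Benjamini-Hochberg within tissue and contrast at 0.05. Age used Spearman's rho (threshold 0.5, 100000 shuffles of age, smallest p 1e-05). edgeR 4.0.16 ran on recovered reads, rounded to whole numbers. The parabiosis groups were fitted without a block, as in the study. Pair numbers mark joined mates. Of 86 mate pairs in a tissue, 38 had deviations from their group means correlated over 0.1 (median 0.03, range -0.82 to 0.86). Among the 39 heterochronic mates, which tie HA to HY, it was 25 (median 0.24). Libraries of the aging cohort that share a number are not known to share a mouse, so p-values measure the spread between libraries.

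Named miRNAs were both members, their other arms, miRNAs with the same seed, the miR-15 and miR-107 group, an insulin, glucose and lipid list as counts with the extremes in BAT, and the 5 closest patterns. Tissue markers were summed per list. Scaling, filters, pseudocounts, sex, age range, batches, blocks and single libraries were varied. Scripts were tested on simulated data. Mature and hairpin sequences were from RefSeq, host genes from GENCODE M21. The name of the HY strain is not reported here.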

Additional observations from a re-analysis of the deposited data

Results flagged for a closer look

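A highest or lowest library stood far from its group in 18 of 186 tests, each of 1 group and 1 quantity, over 2 members and their ratio. The critical values allow about 1 in 20 for independent, normally distributed values. The ratio depends on the members and levels were tested in rpmm, so the number is not read against chance. No explanation was weighed for any of these libraries.

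In parabiosis kidneys, HA mouse 14A gave the lowest miR-107-3p of its group (191 rpmm) and the highest log2 ratio of miR-103-3p to miR-107-3p (2.44), and 1 IY kidney gave the highest miR-103-3p (1303 rpmm). In limb muscle the highest values that stood apart were a ratio of 3.33 in HA and 2.90 in IY and a miR-103-3p level of 398 rpmm in IA and 499 rpmm in IY. In liver they were a ratio of 1.92 in HA and 771 rpmm of miR-103-3p in IY. In fat they were a lowest ratio of 2.35 in GAT of HA and a highest ratio of 3.80 in MAT of IA.

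In aging kidneys miR-107-3p had a lone low library at 1 month (33.3 rpmm) and at 21 months (172 rpmm), and miR-103-3p had one at 18 months (215 rpmm). The kidney ratio had a lone high library at 9 months (1.27) and a lone low one at 27 months (0.73). SCAT at 9 months held 1 library with 2919 rpmm of miR-103-3p, and skin at 9 months held 1 with a ratio of 3.06.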

How the results depend on the processing

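The calls by age, sex and parabiosis group kept their sign under the alternatives run. miR-107-3p in SCAT, which was no call at 21 against 3 months (0.43), turned to -0.95 and became one without 3-month library 16, also the library there closest to another tissue. It ran from -0.95 to 1.03 with single libraries left out, at 0.30 where adjusted p was highest, and -0.34, no call, with the plate as a covariate. The causes of the changes below were not tested, and the pool covariate was chosen after seeing the data. Member calls by age correlation (1) became 0 with miRNA-read scaling, median-ratio scaling, plate means removed or ages 24 and 27 months left out, 3 by adjusted p, and 0 to 2 with single libraries left out (BAT libraries 05, 19, 30 and 23). In males the number stayed at 1, but BAT was lost (0.49) and miR-107-3p in liver passed (0.59). For the ratio with age (0) they became 1 without libraries closest to another tissue, 1 in males, 1 with plate means removed and 2 with set means removed. For later ages against 3 months (1) they became 0 with miRNA-read scaling, 2 with a mean of 10 rpmm required or without libraries closest to another tissue, 3 with median-ratio scaling (the liver call lost, 0.33, limma adjusted p = 0.594), 6 in males, 7 with the set and 11 with the plate as a covariate, and 0 to 6 with single libraries left out, an alternative added after the call was seen. The gained ones lay in kidney (3-month libraries 23, 32 and 47, 15-month 07), liver (3-month 06 and 08, 21-month 17) and SCAT (3-month 16 and 43), with limma adjusted p from 0.0161 to 0.0475. For 21 against 3 months (0) they became 1 with edgeR, with median-ratio scaling or without libraries closest to another tissue, and 0 to 2 with single libraries left out. The calls gained were both members in kidney without 3-month library 23 (limma adjusted p = 0.044 and 0.0349), miR-103-3p there without 3-month library 47 (0.0379), and miR-107-3p in liver without 21-month library 17 (0.0261) and, turned to lower, in SCAT without 3-month library 16 (0.0332). For sex (3) they became 1 with the plate, 2 with the set (liver and skin miR-107-3p lost, limb muscle miR-103-3p gained) and 5 without libraries closest to another tissue, and 2 to 5 with single libraries left out. SCAT 3-month library 16 is the one whose absence added both members in SCAT, lower in females (limma adjusted p = 0.00772 and 0.0125). In limb muscle miR-103-3p became a call, lower in females, without library 01 or 33 of 15 months, 42 of 6 months or 12 or 38 of 9 months (limma adjusted p from 0.0287 to 0.0457), and miR-107-3p without the last (0.0455). Neighbouring tissues that differed (8) became 4 in males and 5 at 3 to 21 months or without libraries closest to another tissue.

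For the parabiosis contrasts (2 calls), the replicate block with pair number as a random block left 1 call. As a fixed block in HA and HY alone it kept -0.68 for miR-107-3p in kidney (limma adjusted p = 0.0155). Calls fell to 1 with the sequencing pool as a covariate, without the 3-month IY mice, without the 4.5-month IY mice, and 1 to 3 with single libraries left out. The lost call was IA against IY, with adjusted p from 0.00383 to 0.584 over its alternatives. The gained ones were miR-103-3p in heart, for HA against HY without HY mouse 12B (0.46, limma adjusted p = 0.0491) and for HA against IA without IA mouse 19A. Libraries with few miRNA reads, 7 reads of miR-107-3p at the thinnest, limit precision in the aging cohort.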
